A study of Homo sapiens with 6 samples.

Results

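The genes described here make, sense and take up cholesterol. They are 29 rows of a table of 26475 genes, named for their known place in the pathway, with earlier results of these data known: the enzymes of the mevalonate and sterol routes, the SREBP2 control genes, and genes that move, store or limit the uptake of cholesterol. The measurements are RNA sequencing of HepG2, a human liver cancer line, grown exponentially. In 3 libraries the cells expressed TAF2, a component of the TFIID complex that helps place RNA polymerase II at promoters, and in 3 libraries they expressed the reporter protein eGFP. The labels give no vector, promoter or clone for either protein. They also leave open whether the 3 libraries of a group are 3 cultures, and p-values here rest on library-to-library spread that may be technical.

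Cholesterol synthesis starts in the cytosol from acetyl-CoA, passes through mevalonate and isoprenoid units to squalene, and ends with the closing and trimming of the sterol ring in the endoplasmic reticulum. When sterols in that membrane run low, SCAP carries the precursor of the transcription factor SREBP2 to the Golgi, where proteases free its active part, which then raises most genes of the pathway; INSIG proteins hold SCAP back when sterols are plentiful. The liver is the main organ that makes cholesterol, packs it into lipoproteins and clears it from blood.

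Total expected counts per library were 24631251 to 28024004 with TAF2 and 22276308 to 27137862 with eGFP. TAF2 itself had 50.1, 48.3 and 47.4 CPM (counts scaled to the library size) in TAF2 libraries, against 35.8, 40.4 and 37.5 CPM in eGFP libraries, which is 0.36 higher on the log2 scale (SE 0.046). The 9 hepatocyte markers examined were above 1 CPM in the libraries, and their summed level was 38700 to 40510 CPM with TAF2, against 48230 to 49710 CPM with eGFP. APOB alone gave 19630 CPM with TAF2 and 23029 CPM with eGFP on average, and FGB, a fibrinogen chain, went the other way, with 91.8 CPM with TAF2 and 58.9 CPM with eGFP (log2 fold change 0.64, edgeR adjusted p = 3.74e-18). Of the 6 fibroblast markers 4 stayed under 1 CPM everywhere and DCN and LUM were at 0, but the summed level was 20.4 to 21.8 CPM with TAF2, against 8.14 to 9.22 CPM with eGFP, nearly all from PDGFRB. All 5 endothelial markers were under 1 CPM. PTPRC and CD3E, of the blood list, were at 0, while that list summed to 2271 to 2323 CPM with TAF2 and 1941 to 2058 CPM with eGFP, carried by the lysozyme gene LYZ. In that list CD68 (log2 fold change -0.40, edgeR adjusted p = 7.08e-10) and CD14 (-1.01, adjusted p = 0.000328) fell. The part of these shifts in the results below was not tested.

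Of the 29 genes, 28 had enough counts to be tested and 1, INSIG1, did not. With TAF2, 18 of the 28 fell, 1 rose and 9 did not pass the test (edgeR quasi-likelihood test over 12902 genes, Benjamini-Hochberg adjusted p under 0.05). Over all tested genes 22.4% fell and 20.6% rose, against 64.3% and 3.57% of these 28, which were not chosen blind to results. Their median log2 fold change was -0.13, beside -0.00275 over all tested genes. In libraries of whole cultures, fewer cells that express a gene and less RNA per cell cannot be told apart. The 6 largest falls were those of TM7SF2, MSMO1, DHCR7, EBP, SC5D and STARD4, and LBR was the gene that rose. All 3 TAF2 libraries lay below all 3 eGFP libraries for 19 genes and above them for 1, where the shares over all tested genes were 26.1% and 24.5%. Tested against a 1.2-fold change rather than none, those 6 genes still passed, and against 1.5-fold TM7SF2 alone did (adjusted p = 0.00257). Over all 12902 tested genes, 776 passed as lower against 1.2-fold and 220 against 1.5-fold.

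**Figure D1:**
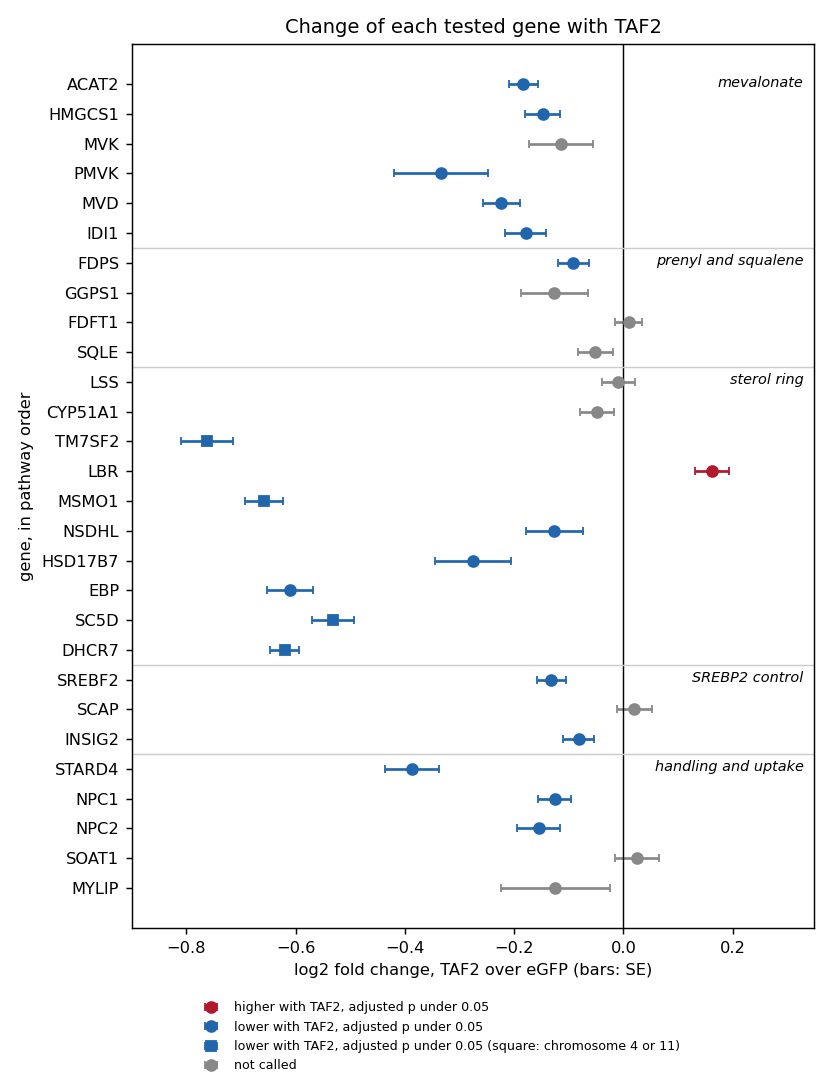
Log2 fold change of TAF2 over eGFP for each of the 28 tested genes, in the order of the pathway from top to bottom, with its SE as bars. Points at or near 0 from FDFT1 to CYP51A1 stand between the moderate falls of the mevalonate enzymes and the large falls of TM7SF2, MSMO1, EBP, SC5D and DHCR7; squares mark genes on chromosomes 4 and 11.

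The first steps, from acetyl-CoA to the isoprenoid unit, were lower with TAF2 by small amounts. Of the 6 genes in this group 5 fell (83.3%) and 0 rose, against 22.4% and 20.6% of all tested genes. The log2 fold changes of the group lay between -0.33 and -0.11. ACAT2, the cytosolic thiolase that joins 2 acetyl-CoA molecules, had 174, 182 and 183 CPM in TAF2 libraries, against 209, 202 and 200 CPM in eGFP libraries. Its log2 fold change was -0.18 (SE 0.026, edgeR adjusted p = 1.84e-07), and the groups did not overlap. ACAT2 overlaps SOD2 and TCP1 at its ends, and the counting is not stated to use strand, so some of its reads could belong to those genes.

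HMGCS1, the synthase that makes HMG-CoA, had 104, 103 and 103 CPM in TAF2 libraries, against 111, 121 and 112 CPM in eGFP libraries. The TAF2 libraries were nearly equal and all of them lower (log2 fold change -0.15, SE 0.032, edgeR adjusted p = 0.000164). MVD, the decarboxylase that yields isopentenyl diphosphate, had 75.2, 78.7 and 80.3 CPM in TAF2 libraries and 89.7, 92.4 and 91.7 CPM in eGFP libraries. That is a change of -0.22 in log2 (SE 0.034, edgeR adjusted p = 5.09e-07). IDI1, which isomerises the isoprenoid unit, had 55.5, 56.6 and 55.9 CPM in TAF2 libraries and 62.2, 65.6 and 62.7 CPM in eGFP libraries (log2 fold change -0.18).

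The kinases of the route were at lower levels and less certain. PMVK, phosphomevalonate kinase, had 10.3, 10.8 and 10.5 CPM in TAF2 libraries, against 15.1, 11.6 and 13.0 CPM in eGFP libraries. The eGFP values spread widely, and without eGFP replicate 1 its log2 value of -0.33 became -0.22 (edgeR adjusted p = 0.0566). MVK, mevalonate kinase, had 23.8, 23.0 and 25.7 CPM in TAF2 libraries, against 27.96, 26.05 and 24.46 CPM in eGFP libraries, which overlapped. Its difference of -0.11 in log2 (SE 0.059, edgeR adjusted p = 0.112) did not pass, and without eGFP replicate 3 it did (-0.16, adjusted p = 0.0437), while without eGFP replicate 1 it was -0.06 (adjusted p = 0.52). MVK and the cobalamin gene MMAB overlap at their ends.

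From the prenyl diphosphates to squalene epoxide the values of the groups lay close together. Of these 4 genes 1 fell (25%) and 0 rose, against 22.4% and 20.6% of all tested genes, so the share of falls was near that of all. FDPS, which builds farnesyl diphosphate, had 160, 170 and 174 CPM in TAF2 libraries, against 181, 176 and 179 CPM in eGFP libraries. Its log2 fold change was -0.09 (SE 0.028, edgeR adjusted p = 0.00695), and it no longer passed without TAF2 replicate 1 (-0.05, adjusted p = 0.158) or eGFP replicate 1 (-0.08, adjusted p = 0.0566). FDFT1, squalene synthase and the first step committed to sterols, had 235, 251 and 239 CPM in TAF2 libraries, against 243, 236 and 240 CPM in eGFP libraries. These overlapped, with a log2 fold change of 0.0098 (SE 0.025) that turned to -0.02 without TAF2 replicate 2.

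SQLE, squalene epoxidase, a rate-limiting step of the sterol route, had 134, 141 and 148 CPM in TAF2 libraries, against 146, 151 and 142 CPM in eGFP libraries. The ranges overlapped (log2 fold change -0.05, SE 0.032, edgeR adjusted p = 0.208), although without TAF2 replicate 3 it passed (-0.09, adjusted p = 0.0334), while without TAF2 replicate 1 it was -0.01 (adjusted p = 0.823) and without eGFP replicate 2 it was -0.02 (adjusted p = 0.632). GGPS1, which makes the geranylgeranyl diphosphate used to anchor proteins in membranes, had 20.1, 18.6 and 19.5 CPM in TAF2 libraries, against 20.8, 20.6 and 22.2 CPM in eGFP libraries. All its TAF2 libraries were lower, yet its log2 fold change of -0.13 (SE 0.061) did not pass (edgeR adjusted p = 0.0921). It overlaps ARID4B at its start.

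The sterol ring enzymes held the largest falls and the one rise. Of the 10 genes 7 fell (70%) and 1 rose (10%), against 22.4% and 20.6% of all tested genes, and 2 did not pass. The median of their log2 fold changes was -0.40. TM7SF2, DHCR7 and SC5D lie on chromosome 11 and MSMO1 on chromosome 4. Among genes at 5 CPM or more, 94.6% were lower on chromosome 11 and 89.3% on chromosome 4. Ring genes elsewhere had LSS -0.0089, CYP51A1 -0.05, LBR 0.16, NSDHL -0.13, HSD17B7 -0.28 and EBP -0.61. A median or sum of the ring group without these chromosomes was not computed. The summed level of the 10 was 760, 810 and 808 CPM in TAF2 libraries, against 975, 967 and 953 CPM in eGFP libraries. By comparison the 4 genes of the prenyl and squalene steps summed to 548, 580 and 581 CPM in TAF2 libraries, against 591, 584 and 583 CPM in eGFP libraries.

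The first pair of ring enzymes did not pass the test. LSS, the cyclase that closes squalene epoxide into lanosterol, had 114, 124 and 119 CPM in TAF2 libraries, against 120, 119 and 120 CPM in eGFP libraries, and the groups overlapped (log2 fold change -0.0089, SE 0.030). CYP51A1, the lanosterol demethylase, had 119, 130.2 and 130.3 CPM in TAF2 libraries, against 131.2, 131.2 and 130.03 CPM in eGFP libraries (log2 fold change -0.05, SE 0.031, edgeR adjusted p = 0.213). For both genes the lowest library was TAF2 replicate 1.

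The next step, reduction of the bond at carbon C14, is carried out by either of a pair of related enzymes, TM7SF2 and LBR, and they went opposite ways. TM7SF2 had 27.16, 28.96 and 27.73 CPM in TAF2 libraries, against 49.4, 47.3 and 45.5 CPM in eGFP libraries. This was the largest change among the 28 genes, -0.76 on the log2 scale (SE 0.048, edgeR adjusted p = 3.24e-17), with no overlap. LBR, which is also the lamin B receptor of the inner nuclear membrane, had 160, 175 and 173 CPM in TAF2 libraries, against 155, 152 and 147 CPM in eGFP libraries. All its TAF2 libraries were higher, by a log2 change of 0.16 (SE 0.031, edgeR adjusted p = 7.06e-05). Per transcript length, LBR stood at 2.60, 2.67 and 2.76 times the level of TM7SF2 in TAF2 libraries and at 1.39, 1.43 and 1.43 times in eGFP libraries.

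After that step, the C4 demethylation enzymes fell unequally. MSMO1, the methylsterol monooxygenase, had 61.3, 60.0 and 61.9 CPM in TAF2 libraries, against 95.9, 99.3 and 93.9 CPM in eGFP libraries. The groups were far apart compared with their spread (log2 fold change -0.66, SE 0.035, edgeR adjusted p = 1.09e-19). HSD17B7, the ketosteroid reductase of the same complex, had 14.6, 15.9 and 16.3 CPM in TAF2 libraries, against 20.5, 17.5 and 18.6 CPM in eGFP libraries (log2 fold change -0.28, edgeR adjusted p = 0.00118). Its expected counts are not whole numbers, and reads shared with related sequences were not examined, so its value is uncertain.

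NSDHL, the decarboxylating dehydrogenase between them, had 28.9, 32.5 and 33.4 CPM in TAF2 libraries, against 35.4, 34.3 and 33.8 CPM in eGFP libraries. It only just passed (log2 fold change -0.13, edgeR adjusted p = 0.0456). It failed in each fit without 1 of TAF2 replicate 1 (-0.06, adjusted p = 0.39), TAF2 replicate 2 (0.0567), eGFP replicate 1 (0.183), eGFP replicate 2 (0.0782) or eGFP replicate 3 (0.0579).

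Among the last ring enzymes, SC5D fell by 30.8%, EBP fell by 34.5% and DHCR7 fell by 34.9%. EBP, the isomerase that shifts the ring double bond, had 42.8, 41.9 and 40.8 CPM in TAF2 libraries, against 66.7, 63.6 and 61.1 CPM in eGFP libraries (log2 fold change -0.61, SE 0.042, edgeR adjusted p = 5.57e-16). SC5D, the desaturase that follows, had 54.6, 57.5 and 57.1 CPM in TAF2 libraries, against 77.5, 85.0 and 82.5 CPM in eGFP libraries (-0.53, SE 0.038, adjusted p = 2.43e-15). DHCR7, which reduces 7-dehydrocholesterol to cholesterol and also draws on the precursor of vitamin D, had 138, 144 and 148 CPM in TAF2 libraries, against 223, 217 and 221 CPM in eGFP libraries. With a log2 fold change of -0.62 (SE 0.027) it had the smallest p of the 28 (edgeR adjusted p = 1.16e-22). None of the 3 overlapped between groups.

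**Figure D2:**
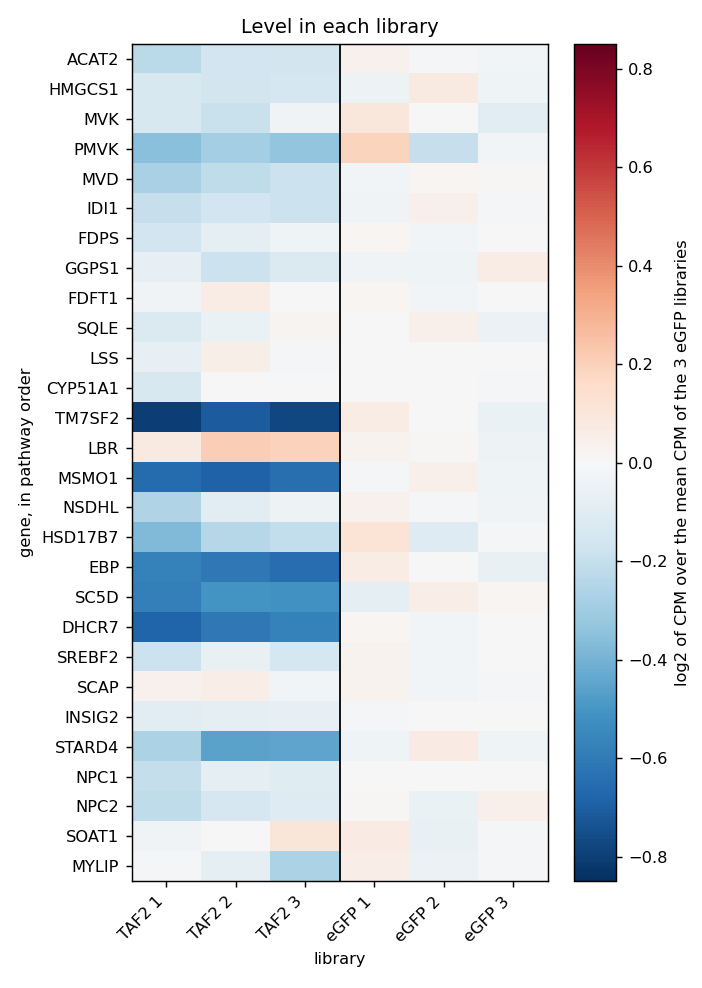
Level of each tested gene in each library, as log2 of its CPM over the mean CPM of the 3 eGFP libraries, with the TAF2 libraries on the left and genes in pathway order. TM7SF2, MSMO1, EBP, SC5D and DHCR7 are dark blue in all 3 TAF2 libraries. LBR is only faintly red in them, least in TAF2 replicate 1, and FDFT1 and LSS show no separation of the groups.

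The genes of SREBP2 control moved little. SREBF2, which encodes SREBP2, had 194, 211 and 198 CPM in TAF2 libraries, against 225, 216 and 219 CPM in eGFP libraries. The groups did not overlap, and the log2 fold change was -0.13 (SE 0.027, edgeR adjusted p = 0.00011). SCAP, its escort, had 98.2, 99.7 and 94.3 CPM in TAF2 libraries, against 98.1, 94.6 and 95.2 CPM in eGFP libraries, which overlapped (log2 fold change 0.02, SE 0.032). These are RNA levels, and the amount of processed SREBP2 protein was not measured.

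The INSIG pair was present through 1 gene. INSIG1, itself a well-known SREBP target, had 0 counts in all 3 TAF2 libraries, against 0, 0 and 1 count in eGFP libraries. A count of 0 allows a level of up to 0.107 to 0.122 CPM in a TAF2 library and 0.111 to 0.135 CPM in an eGFP library, for counting error only. Whether the transcript was missing from the cells or from the counting cannot be told apart from the table. INSIG2 had 110.7, 110.9 and 112.0 CPM in TAF2 libraries, against 117, 118 and 118 CPM in eGFP libraries. It was lower in all TAF2 libraries by a log2 change of -0.08 (SE 0.028, edgeR adjusted p = 0.018), and was not called without TAF2 replicate 1 (adjusted p = 0.0659), TAF2 replicate 2 (0.0685), eGFP replicate 2 (0.0599) or eGFP replicate 3 (0.0556).

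Among genes that handle cholesterol, 3 of 5 fell (60%) and 0 rose, against 22.4% and 20.6% of all tested genes. STARD4, a soluble carrier that moves sterol between membranes, had 38.1, 33.6 and 33.7 CPM in TAF2 libraries, against 44.8, 48.2 and 44.7 CPM in eGFP libraries. Its change of -0.39 in log2 (SE 0.049, edgeR adjusted p = 1.64e-08) was the largest outside the sterol ring group. NPC1 and NPC2, which pass cholesterol taken up with lipoproteins out of the lysosome, both fell. NPC1 had 111, 121 and 119 CPM in TAF2 libraries, against 128, 128 and 128 CPM in eGFP libraries (log2 fold change -0.13, adjusted p = 0.000682). NPC2 had 51.9, 54.6 and 55.9 CPM in TAF2 libraries, against 60.6, 58.0 and 62.2 CPM in eGFP libraries (-0.16, adjusted p = 0.00155). NPC1 overlaps C18orf8 at its end.

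SOAT1, which esterifies cholesterol for storage, had 62.6, 63.9 and 68.7 CPM in TAF2 libraries, against 67.0, 61.3 and 63.4 CPM in eGFP libraries. The groups overlapped (log2 fold change 0.03, SE 0.040, edgeR adjusted p = 0.652). MYLIP, the ubiquitin ligase IDOL that marks lipoprotein receptors for degradation, had 7.86, 7.54 and 6.60 CPM in TAF2 libraries, against 8.30, 7.69 and 7.90 CPM in eGFP libraries. Its overlap and its SE of 0.099 leave the log2 fold change of -0.12 within the spread of the libraries (adjusted p = 0.329).

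Levels can be compared between genes only per length, here as mean CPM per kilobase of the matched transcripts. FDPS (125 with TAF2, 133 with eGFP) and FDFT1 (120 with TAF2, 119 with eGFP) stood highest. DHCR7 came next in eGFP libraries at 82.7, and with TAF2, at 53.8, it lay behind ACAT2 at 56.5. MYLIP was lowest at 4.40 with TAF2 and 4.78 with eGFP. PMVK (8.25 with TAF2, 10.3 with eGFP) and GGPS1 (9.36 with TAF2, 10.2 with eGFP) were the lowest of the synthesis enzymes. The lengths are medians over annotated transcripts and not those of the expressed forms, so the order of close neighbours is not firm.

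**Figure D3:**
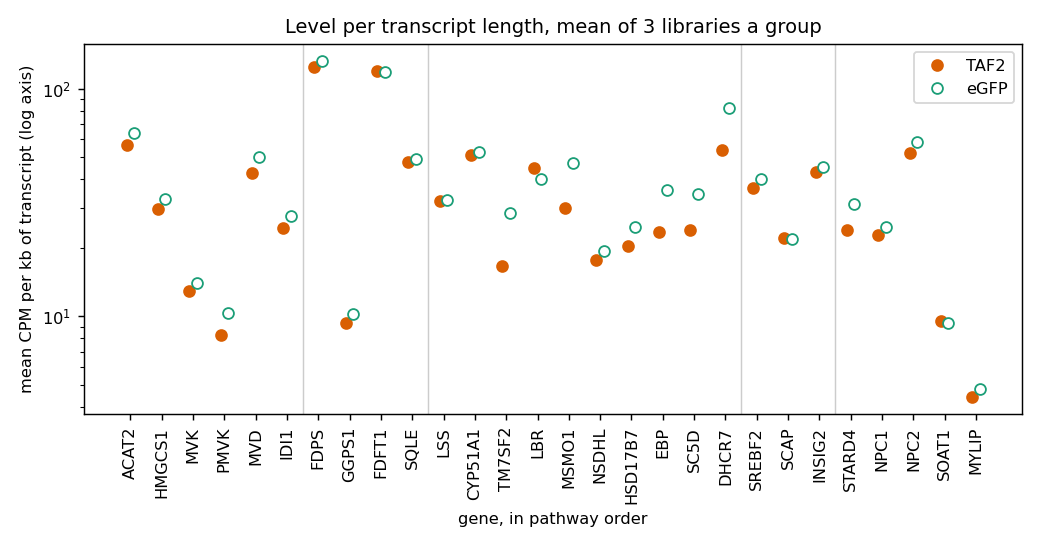
Mean CPM per kilobase of transcript on a log axis for the 28 tested genes in pathway order, with filled points for TAF2 and open points for eGFP, each the mean of 3 libraries. FDPS and FDFT1 are highest in both groups, and the gaps between filled and open points are widest at TM7SF2, MSMO1, EBP, SC5D and DHCR7.

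Sequence upstream of the start was examined for 26 of the 29 genes that have a promoter window in the RefSeq table (GRCh38.p14; 250 bases before to 50 after the first listed start, both strands). The core of the sterol regulatory element (CACCCCA), the site of SREBP, was present in 5 of the 26 (19.2%), against 7.13% of the promoters of 9602 tested genes and 7.83% of all 27305. These 5 were SREBF2, EBP, MVD, MVK and SOAT1, of which 3 fell. That is 3 of the 17 promoters of genes that fell (17.6%) and 2 of the other 9 (22.2%). The core was chosen after a longer form of the element had been searched and had matched SREBF2 alone among the 26, so the share of the core depends on that choice. The CCAAT box (CCAAT), bound by NF-Y, which works beside SREBP at many sterol genes, was present in 18 of 26 (69.2%), against 37.1% of promoters of tested genes and 35.7% of all. It was in 13 of the 17 promoters of genes that fell and in 5 of the other 9. The GC box (GGGCGG) was in 23 of 26 (88.5%), against 70.1% and 44.6%, and the E-box (CACGTG) in 4 of 26 (15.4%), against 10.3% and 7.43%. The GC box was in 16 of the 17 and 7 of the other 9. For the E-box these were 1 of the 17 and 3 of the other 9. Some motifs share letters at their ends, such as CCA at the end of the core and the start of the CCAAT box, so matches can overlap. A match in letters is a description and shows no binding.

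The 150 bases before the start follow for the genes with the largest falls in the sterol ring, for LBR, which rose, and for SREBF2. They are shown to set the promoters of genes that fell beside that of the gene that rose. Capitals mark CCAAT in either orientation (ATTGG on the other strand) and the core of the sterol regulatory element, which stands at -132 to -126 from the start in SREBF2 and at -142 to -136 in EBP. Each is written 5′ to 3′ on the strand of the gene. For DHCR7 the start is the first of those listed and lies inside the span given for the gene, so its bases do too. The positions are chr11:65111722-65111871 (+) for TM7SF2, chr4:165327519-165327668 (+) for MSMO1, chr11:71448394-71448543 (-) for DHCR7, chrX:48521658-48521807 (+) for EBP, chr11:121292621-121292770 (+) for SC5D, chr1:225428822-225428971 (-) for LBR and chr22:41832955-41833104 (+) for SREBF2.
TM7SF2: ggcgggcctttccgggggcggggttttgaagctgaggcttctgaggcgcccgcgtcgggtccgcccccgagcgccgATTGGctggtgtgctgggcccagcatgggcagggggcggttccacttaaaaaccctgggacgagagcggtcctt
MSMO1: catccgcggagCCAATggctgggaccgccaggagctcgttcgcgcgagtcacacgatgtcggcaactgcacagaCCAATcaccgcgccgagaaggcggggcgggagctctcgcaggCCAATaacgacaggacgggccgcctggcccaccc
DHCR7: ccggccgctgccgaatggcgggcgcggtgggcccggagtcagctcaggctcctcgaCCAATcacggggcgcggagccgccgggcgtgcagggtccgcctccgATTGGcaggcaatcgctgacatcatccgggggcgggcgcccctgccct
EBP: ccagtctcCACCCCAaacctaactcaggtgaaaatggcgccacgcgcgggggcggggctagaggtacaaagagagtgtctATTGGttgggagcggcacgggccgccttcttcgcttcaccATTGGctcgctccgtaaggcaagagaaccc
SC5D: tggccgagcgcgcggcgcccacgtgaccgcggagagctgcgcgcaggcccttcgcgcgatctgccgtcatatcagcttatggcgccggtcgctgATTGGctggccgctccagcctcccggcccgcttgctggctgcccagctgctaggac
LBR: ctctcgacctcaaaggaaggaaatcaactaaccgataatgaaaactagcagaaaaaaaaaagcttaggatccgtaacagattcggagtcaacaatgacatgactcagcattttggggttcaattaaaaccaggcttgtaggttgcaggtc
SREBF2: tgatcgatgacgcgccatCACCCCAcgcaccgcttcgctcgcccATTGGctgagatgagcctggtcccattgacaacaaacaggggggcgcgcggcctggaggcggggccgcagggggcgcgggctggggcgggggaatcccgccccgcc
The 6 promoters shown of genes that fell each hold at least 1 CCAAT box in these 150 bases, with 3 in MSMO1. LBR holds none of the 4 motifs in its window, and neither does GGPS1, which was not called. The box does not separate the genes by their change. PMVK, IDI1, INSIG2 and NPC1 fell and hold none in their windows, while MVK, LSS, SOAT1 and MYLIP were not called and hold it.

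Genes of the same pathway outside the 29 were taken as a list of 50, of which 43 were tested. Of these 17 fell (39.5%) and 5 rose (11.6%), against 22.4% and 20.6% of all tested genes, and the median of the 43 log2 fold changes was -0.08. ACAT1, NR1H3 and OSBP on chromosome 11 and TMEM33 on chromosome 4 count among the falls, and most measured genes there were lower. A share without these chromosomes was not computed for this list. In the list of export, esterification and sterol breakdown 4 of 6 fell (66.7%) and 1 rose (16.7%). ABCG8, a subunit of the sterol exporter of the bile canaliculus, had 11.1, 9.73 and 9.74 CPM in TAF2 libraries, against 17.3, 16.0 and 15.2 CPM in eGFP libraries (log2 fold change -0.67, edgeR adjusted p = 2.8e-09). The gene of its partner subunit, ABCG5, was lower in all TAF2 libraries but was not called (-0.10, edgeR adjusted p = 0.259). SOAT2, the acyltransferase that esterifies cholesterol in liver and gut, had 35.4, 35.5 and 34.1 CPM in TAF2 libraries, against 53.0, 47.8 and 50.9 CPM in eGFP libraries (-0.53, adjusted p = 4.28e-13). ABCA1, which loads cholesterol onto nascent HDL, had -0.42, and NCEH1, which hydrolyses cholesterol esters, had -0.23. CYP27A1, the sterol 27-hydroxylase, rose (0.17, adjusted p = 9.15e-07).

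In the list of sterol control genes 5 of 11 fell (45.5%) and 1 rose (9.09%), against 22.4% and 20.6% of all tested genes. SREBF1, which encodes SREBP1, was -0.20 on the log2 scale (SE 0.030, edgeR adjusted p = 3.35e-07), and the LXR alpha gene NR1H3, a sensor of oxysterols on chromosome 11, had -0.38. ERLIN1 (-0.24) and ERLIN2 (-0.11), which help degrade sterol enzymes at the endoplasmic reticulum, and TMEM33 (-0.17, chromosome 4) also fell. ERLIN2 did not pass without eGFP replicate 3 (adjusted p = 0.0567). Of 4 tested genes of other synthesis steps 2 fell (50%) and 1 rose (25%). The mitochondrial thiolase ACAT1 (-0.33, chromosome 11) was among the falls.

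Uptake and transport genes fell in 3 of 12 and rose in 1 (25.0% and 8.33%), a share of falls near the 22.4% of all tested genes. OSBP (-0.27, chromosome 11), an oxysterol-binding lipid exchanger, and LIPA (-0.21), the lysosomal acid lipase, fell. The isoprenoid branch had 3 lower and 1 higher of 10 (30% and 10%, against 22.4% and 20.6% of all tested genes). DHDDS (-0.22), which makes the dolichol chain, FNTB (-0.22), a farnesyltransferase subunit, and PDSS2 (-0.17), of the ubiquinone side chain, fell, and RABGGTB (0.18), of the enzyme that prenylates RAB proteins, rose. The expected counts of FNTB are not whole numbers either, and it did not pass without TAF2 replicate 2 (adjusted p = 0.0621), nor PDSS2 without TAF2 replicate 3 (0.187) or eGFP replicate 1 (0.136).

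Position in the genome moved with some of these values. Among genes at 5 CPM or more, those on chromosome 11 had a median of -0.27 on the log2 scale, with 94.6% of 592 lower, and those on chromosome 4 had -0.18, with 89.3% of 356 lower. The values of OSBP (-0.27) and TMEM33 (-0.17) lie at the medians of their chromosomes to within 0.01. TM7SF2 (chromosome 11, 65111872 to 65116230, GRCh38.p14), DHCR7 (chromosome 11, 71427287 to 71449043), SC5D (chromosome 11, 121292771 to 121313410) and MSMO1 (chromosome 4, 165327669 to 165343164) lie there. Without these 4, 14 of 24 genes fell and 1 rose (58.3% and 4.17%), against 17.9% and 22.2% of the 11771 tested genes off these chromosomes. The median log2 fold change of the 24 was -0.13, the same as that of the 28 at this precision.

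Each gene was also set beside up to 10 of the nearest measured genes on each side (14 in all for IDI1, 15 for LSS and 20 for the others), a description chosen after the values were seen. On the log2 scale TM7SF2 differed from the median of its neighbours by -0.45 (-0.76 against -0.32) and MSMO1 by -0.47 (-0.66 against -0.19). DHCR7 differed by -0.37 (-0.62 against -0.25) and SC5D by -0.36 (-0.53 against -0.18). EBP (chromosome X, 48521808 to 48528716) stood farthest from its neighbours (-0.61 against -0.01), 11 of which were below 0 among 20. Of the 28 genes 24 lay below the median of their neighbours. All 18 that fell are among them, which their being called as lower already favours. The share of all tested genes below their neighbours was not computed, so the 24 of 28 has no background to be read against. The part of the regional shifts in the values of the 4 genes on chromosomes 4 and 11 was not tested beyond these comparisons.

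**Figure D4:**
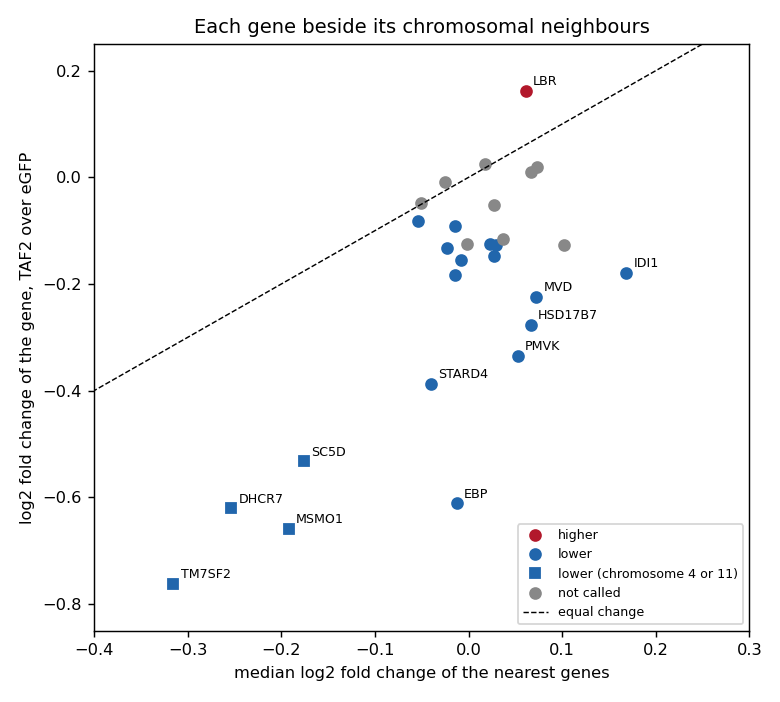
Log2 fold change of each tested gene against the median log2 fold change of up to 10 of the nearest measured genes on each side, with the dashed line where both are equal. TM7SF2, DHCR7, SC5D and MSMO1 lie at the left, where neighbours were lower too, and still fall below the line; EBP lies below it with neighbours near 0, and LBR lies above it.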

How the data were processed

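The 6 libraries were made from total RNA with a TruSeq kit and read in 2 rounds of Illumina sequencing, per the labels' protocols. The authors' deposited table holds expected counts for each gene and its RefSeq transcript accessions. The submitters' processing notes name RSEM and hg38. Between 4.18% and 4.45% of values in a library were not whole. Not given in the sources used here: aligner, annotation release, strand setting.

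Columns were matched to libraries by name, and 0 count columns were left unused. Counts were rounded. Genes kept by filterByExpr (12902) were scaled by TMM and tested by group with edgeR 4.0.16 (R 4.3.3; robust glmQLFit, then glmQLFTest). Benjamini-Hochberg adjustment ran over all 12902 genes, with a threshold of 0.05. CPM use the scaled library sizes, and SE is the log2 fold change over the root of F. Genes were placed through transcript accessions on GRCh38.p14 (25637 of 26475), and lengths are medians of matched GENCODE 29 transcripts. The test was checked on simulated counts with known changes.

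The 29 genes and the lists of other pathway genes and markers were chosen with earlier results of these data known. All 29 are named. Of the other pathway genes, up to 5 called ones per list are named by smallest p, and ABCG5 as the partner of ABCG8. Some genes that this rule names are not reported here. Alternatives were DESeq2 1.42.0, other scalings and filters, unrounded counts, a replicate term, tests against 1.2-fold and 1.5-fold, a fit without other genes of chromosomes 4 and 11, and leaving out each library.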

Additional observations from a re-analysis of the deposited data

How the results depend on the processing

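Of the 16 alternatives, those that ask for a larger change lowered the counts most. Against a change of 1.2-fold, 1243 genes passed in place of 5548, 776 lower and 467 higher. Of the 29, 6 were lower and 0 higher, and among the other pathway genes 6 were lower and 0 higher. Against 1.5-fold, 373 genes passed, 220 lower and 153 higher. Of the 29, 1 was lower and 0 higher, and 0 other pathway genes were lower or higher. DESeq2 called 4079 genes, 2107 lower and 1972 higher, and 3 other pathway genes higher in place of 5. Among the falls it did not call were those of FDPS (DESeq2 adjusted p = 0.0597), INSIG2 (0.116) and NSDHL (0.214). In the other pathway lists ERLIN2 (0.0728), FNTB (0.0532) and PDSS2 (0.138) were not called by DESeq2 either. Leaving out 1 library gave 4800 to 5288 genes, 15 to 19 of the 29 lower and 1 higher, and 16 to 17 other pathway genes lower and 4 to 5 higher. Of the 13014 to 13064 genes tested in those fits, 2518 to 2699 were lower and 2282 to 2631 higher. Signs turned for 3 genes near 0. FDFT1 had a log2 fold change of -0.0061 without other genes of chromosomes 4 and 11, and -0.015 to 0.036 when 1 library was left out (negative without TAF2 replicate 2). LSS had 0.0049 with upper-quartile scaling, 0.0015 with no filter on low counts, and -0.036 to 0.027 when 1 library was left out (positive without TAF2 replicate 1). SOAT1 ranged from -0.017 (without TAF2 replicate 3) to 0.066. NSDHL lost its call in 12 alternatives, INSIG2 in 9 and FDPS in 5; the cause was not tested. Upper-quartile scaling called 3001 genes higher and 2675 lower, against 2662 and 2886. Deviations of same-numbered libraries correlated at -0.123, -0.265 and -0.17, and those of unlike-numbered ones at -0.0341 to 0.172. With 3 libraries a group, these values cannot settle whether the replicate numbers pair libraries. The fit with the replicate block called 5250 genes, 2761 lower and 2489 higher, and 17 of the 29 lower. At this depth INSIG1 had 0 or 1 count in each library, too few to test. Groups of 3 are too small for a search for outlying libraries.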
